A study of Drosophila melanogaster with 12 samples.

Results

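Hemocytes are the blood cells of Drosophila, and some of them sit on the surface of imaginal discs, so RNA from dissected discs can carry their transcripts. Plasmatocytes, the most common class, engulf microbes and dying cells and secrete matrix and clotting proteins. Crystal cells store the prophenoloxidases, the enzymes that start melanization at wounds. The GATA factor Srp is needed for blood cell formation, and the Runx factor Lz directs the crystal cell fate.

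Hemocyte markers were followed here in 12 arrays of eye-antennal discs. The members were all probe sets whose single gene symbol in the platform annotation was Hml, Pxn, NimC1, Nplp2, srp, He, eater, PPO1 or PPO2. They came to 10 probe sets of 9 genes among the 18952 probe sets on the array, since Pxn has 2. The entry "lz-target" of the list of 10 names is no gene symbol and matched nothing. Of the 10 probe sets, 8 belong to 7 genes called the plasmatocyte group and 2 to the crystal cell genes PPO1 and PPO2. He and srp stand in the first group although neither is limited to plasmatocytes.

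Each array was made from 30 pairs of discs pooled, taken from wandering last-instar larvae, and each of 4 genotypes had 3 biological replicates. The ey-Gal4 group carries the Gal4 driver under eyeless control and no winged eye transgene. The UAS-wge group carries the winged eye (wge) transgene without a driver. The ey>wge group carries both, so the transgene is expressed where eyeless drives Gal4. The fourth group carries both and also the alleles Su(var)3-9[1]/[2], called the allele pair below; no group carries these alleles without ey>wge. Winged eye is a chromatin-associated protein whose overexpression turns eye disc tissue towards wing fate, and Su(var)3-9 is a histone methyltransferase of heterochromatin.

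The wge probe set averaged 846 in ey-Gal4, 853 for UAS-wge, 1067 for ey>wge and 663 for the allele pair, so its rise of 0.33 ± 0.20 (log2, SE) in ey>wge over ey-Gal4 did not pass (adjusted p = 0.535 by limma). With the allele pair it was lower than in ey>wge by 0.72 (log2 change -0.72 ± 0.20, limma adjusted p = 0.0358), without overlap of the arrays, and its part in the differences between these 2 groups was not tested. Whether the probe set detects the transgene transcript was not tested. All 13 eye-antennal disc markers listed passed the filter on low signals, among them toy, so, gl and Dll. Their summed signal was 26836 to 32458 on the ey-Gal4 arrays and 29902 to 34230 for UAS-wge, and it was 12273 to 13139 for ey>wge and 9526 to 12339 for the allele pair. Array medians were 33 and 34 in allele-pair replicates 2 and 3 against 38.7 to 44.4 on the other 10 arrays, and the first principal component (25.6% of the variance) placed these 2 replicates at 51.6 and 66.8, with the rest between -29.0 and 17.2. Signal relative to the arrays of the other genotypes fell with the genomic span of the gene in the same 2 arrays (Spearman correlations of -0.325 and -0.414 across 10752 probe sets, which are not independent replicates). For the members, results that rest on the allele pair are therefore also given with its replicate 1 alone. These are values without a test, since 1 array has no spread of its own. For genes outside the members, comparisons with the allele pair use all its arrays and are not given with replicate 1 alone.

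In UAS-wge discs the 9 tested member probe sets each read higher than in the other 3 genotypes. The plasmatocyte genes lay 3.01 to 10.4 times above ey-Gal4 in mean signal, and the crystal cell genes PPO1 and PPO2 lay 3.14 and 3.67 times above it. For all 9 probe sets tested, the lowest UAS-wge array was above the highest of the 9 other arrays. Such a gap in the same direction was found in 2.77% of the 13817 probe sets tested. In bulk discs, more hemocytes and more RNA per hemocyte cannot be told apart.

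Among the plasmatocyte genes, Hml encodes hemolectin, a large secreted clotting protein. Its probe set (1628018_at) read 694, 671 and 591 on ey-Gal4 arrays, 1542, 2302 and 2042 for UAS-wge, 365, 468 and 349.8 on ey>wge arrays, and 437, 243 and 256 on allele-pair arrays. The UAS-wge arrays stand clear of all others, and the ey-Gal4 arrays lie above the ey>wge arrays without overlap.

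Pxn encodes peroxidasin, a matrix peroxidase that cross-links basement membrane collagen. One of its probe sets (1640097_at) read 307, 195 and 318 on ey-Gal4 arrays, 1060.0, 1711 and 1510.5 for UAS-wge, 264, 237 and 283 on ey>wge arrays, and 310.1, 199 and 192 on allele-pair arrays. UAS-wge was again apart, and the other 3 genotypes overlapped. The second probe set (1629847_at) read between 1.70 and 32.5 on all 12 arrays and exceeded the 40th percentile of its array on 2 of them, so it was not tested.

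NimC1 and eater encode phagocytosis receptors of the Nimrod family. NimC1 (1639502_at) read 44.1, 130.0 and 70.1 on ey-Gal4 arrays, 855, 946 and 740.1 for UAS-wge, 173, 165 and 113 on ey>wge arrays, and 164, 147 and 176 on allele-pair arrays. This gene had its lowest mean in ey-Gal4. The eater probe set (1627746_at) read 217, 205 and 208 on ey-Gal4 arrays, 818, 1059.6 and 767 for UAS-wge, 220.3, 171 and 155 on ey>wge arrays, and 295, 201 and 198 on allele-pair arrays. Outside UAS-wge the eater signals overlapped between all genotypes.

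He encodes Hemese, a transmembrane protein of the hemocyte surface. It (1640654_at) read 313, 182 and 278 on ey-Gal4 arrays, 1011, 1215 and 1343 for UAS-wge, 371, 302 and 263 on ey>wge arrays, and 390.0, 245 and 377 on allele-pair arrays. Only UAS-wge was separate. Nplp2, which encodes a secreted peptide precursor, had the widest spread within UAS-wge: it (1635576_at) read 807, 711 and 325 on ey-Gal4 arrays, 4364, 8565 and 6193 for UAS-wge, 686, 889.6 and 876 on ey>wge arrays, and 1211, 1119 and 1621 on allele-pair arrays. The allele-pair arrays lay above those of ey>wge and ey-Gal4.

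The transcription factor gene srp (1629229_a_at), which is also active in the fat body, read 168, 169 and 155 on ey-Gal4 arrays, 504, 667 and 408 for UAS-wge, 146, 156 and 98.6 on ey>wge arrays, and 95.5, 33.4 and 52.6 on allele-pair arrays. It was the one member with its lowest 3 arrays all in the allele-pair group.

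The crystal cell genes both encode prophenoloxidases. PPO1 (1635494_at) read 2118, 1549.8 and 1500.1 on ey-Gal4 arrays, 4772, 6308 and 5170.0 for UAS-wge, 650.2, 734 and 658 on ey>wge arrays, and 1332, 602 and 691 on allele-pair arrays. PPO2 (1633048_at) read 1392, 978 and 1141 on ey-Gal4 arrays, 3661, 5552 and 3685 for UAS-wge, 689.9, 647 and 704 on ey>wge arrays, and 945, 696 and 855 on allele-pair arrays. Both had the same order of genotype means, with UAS-wge first, followed by ey-Gal4, the allele pair and ey>wge.

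**Figure D1:**
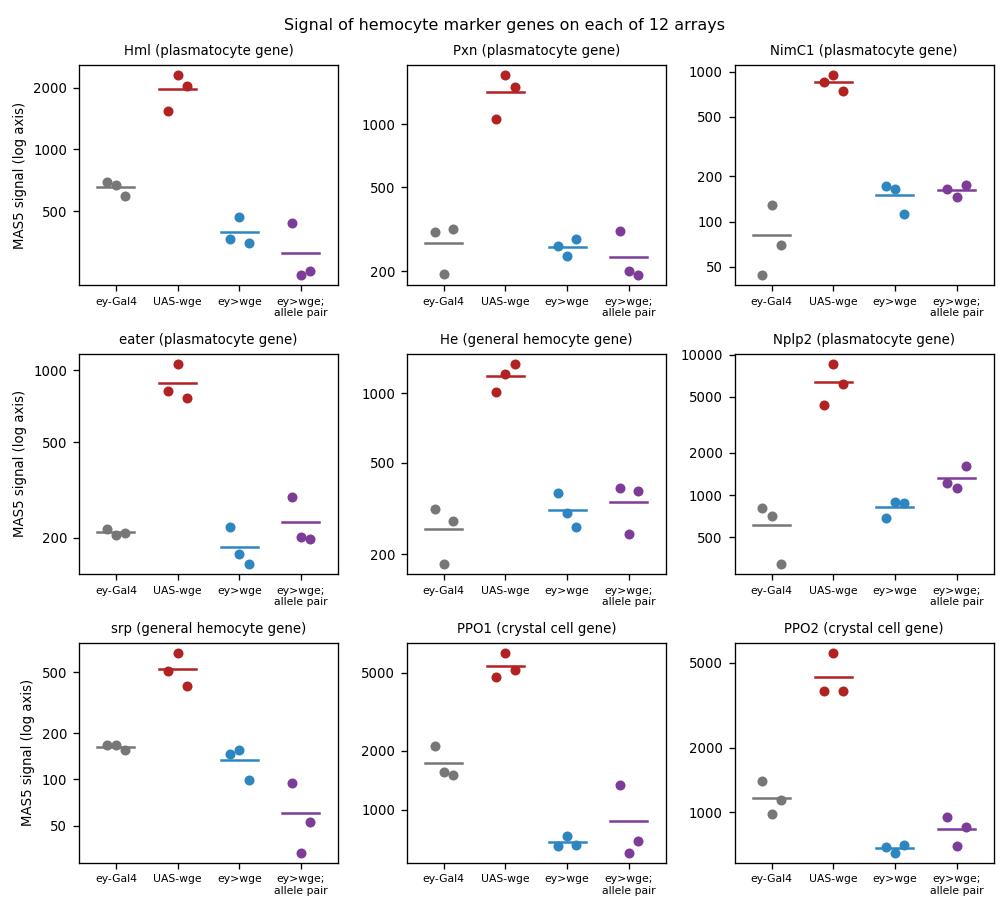
MAS5 signal (log axis, scaled separately in each panel) of the 9 tested hemocyte probe sets on each of 12 arrays; points are arrays, with replicates 1 to 3 from left to right, and bars are means of 3 arrays. In each panel the 3 UAS-wge arrays lie above the 9 others, and the PPO1 and PPO2 arrays of ey>wge lie below those of ey-Gal4.

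Within UAS-wge and within the allele pair, the arrays moved together across genes to some extent. In UAS-wge, replicate 2 had the highest signal for 6 of the 7 tested plasmatocyte probe sets, He being the exception with replicate 3, and for 2 of 2 crystal cell probe sets. With the allele pair, replicate 1 was highest for 5 of 7 and 2 of 2. In ey-Gal4 replicate 1 was highest for 4 of 7 and 2 of 2, and in ey>wge replicates 1 and 2 were highest for 3 of 7 each. Of 5 fat body genes (Lsp2, Fbp1, Fbp2, apolpp and Apoltp), the summed signal reached 735 on 1 allele-pair array. It was 206 and 249 on its other arrays and 140 to 287 in the 3 other genotypes. Lsp2 averaged 211 ± 192 (SD) with the allele pair and 49.8 to 99.3 elsewhere, and Fbp2 87.5 ± 76.8 and 11.6 to 39.5. These 2 of the 5 were higher with the allele pair than in ey-Gal4 (limma adjusted p = 0.0427 and 0.0288). In that comparison 7.04% of all probe sets were called higher. Fbp1 averaged 8.87 to 24.1 in each genotype. The part of fat body RNA in the differences between arrays was not tested.

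The parental lines were compared to measure how far hemocyte transcripts differ between stocks in which winged eye is not driven. On the log2(signal + 16) scale, all 7 tested plasmatocyte probe sets and both crystal cell probe sets were higher in UAS-wge than in ey-Gal4 in the limma fit (adjusted p under 0.05), where 2.31% of all 13817 probe sets were called higher, 2.69% lower and 4.99% in either direction. The median change was 2.16 for the plasmatocyte group and 1.75 for the crystal cell genes, beside 0.0064 for all probe sets tested. All 9 tested probe sets exceeded their array's 40th percentile on each of the 12 arrays, so none entered the test through its UAS-wge signal alone. The transcript of wge changed by 0.015 ± 0.197 (SE, adjusted p = 0.993 by limma).

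The sizes were not equal. Nplp2 changed by 3.39 ± 0.28 (SE), from 614 ± 255 (SD, n = 3) in ey-Gal4 to 6374 ± 2106 in UAS-wge (limma adjusted p = 3.4e-07). NimC1 changed by 3.24 ± 0.28, from 81.4 ± 44.1 to 847 ± 103. Hml, in contrast, changed by 1.55 ± 0.21, from 652 ± 54.0 to 1962 ± 386 (limma adjusted p = 0.000113). The 95% intervals of Nplp2 (2.81 to 3.97) and NimC1 (2.65 to 3.82) do not overlap those of Hml (1.10 to 1.99), srp (0.96 to 2.17) and both crystal cell genes (1.18 to 2.12 for PPO1 and 1.48 to 2.22 for PPO2). The difference between genes was not tested in itself.

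Pxn, He and eater lay between these, with changes of 2.32 ± 0.23, 2.16 ± 0.23 and 1.98 ± 0.21. The transcription factor gene srp changed by 1.57 ± 0.29 (limma adjusted p = 0.00229), the largest adjusted p among the 9. PPO1 changed by 1.65 ± 0.22, from 1723 ± 343 to 5417 ± 797, and PPO2 by 1.85 ± 0.18, from 1170.1 ± 208 to 4299 ± 1085.

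UAS-wge discs were also set against ey>wge, which carries the same transgene together with the driver. All 9 probe sets were again higher in UAS-wge, against 1.96% of all probe sets called higher by limma, 1.74% lower and 3.7% in either direction. PPO1 differed most among the members, by 2.96 ± 0.22 on the log2 scale, from 680.5 ± 46.2 in ey>wge to 5417 ± 797, and PPO2 differed by 2.60 ± 0.18. The plasmatocyte genes ranged from 1.85 for srp to 2.89 for Nplp2, with a median of 2.26, beside 0.0029 for all probe sets tested.

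Against the allele pair, limma called the 9 probe sets higher in UAS-wge as well, in a comparison where 10.1% of all probe sets were called higher, 6.62% lower and 16.7% in either direction. The changes ran from 1.79 ± 0.23 for He to 2.88 ± 0.29 for srp, and PPO1 and PPO2 differed by 2.69 ± 0.22 and 2.33 ± 0.18. With replicate 1 alone standing for the allele pair, the 9 changes were 1.51 for eater to 2.33 for Nplp2. These comparisons share the UAS-wge arrays and do not count as separate evidence.

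Against the mean of the other 3 genotypes, the plasmatocyte changes ranged from 1.94 for He to 2.84 for Nplp2. The crystal cell genes changed by 2.43 and 2.26, and 9 of 9 passed beside 3.76% of all probe sets called higher, 3.01% lower and 6.77% in either direction. In this comparison 10 of 13 eye-antennal disc markers were higher too, by 1.34 for toy, with a median of 1.07. Against ey-Gal4, 0 of these 13 passed in the limma fit, with a median of 0.084; in that comparison 1930 probe sets had an unadjusted p under 0.05.

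**Figure D2:**
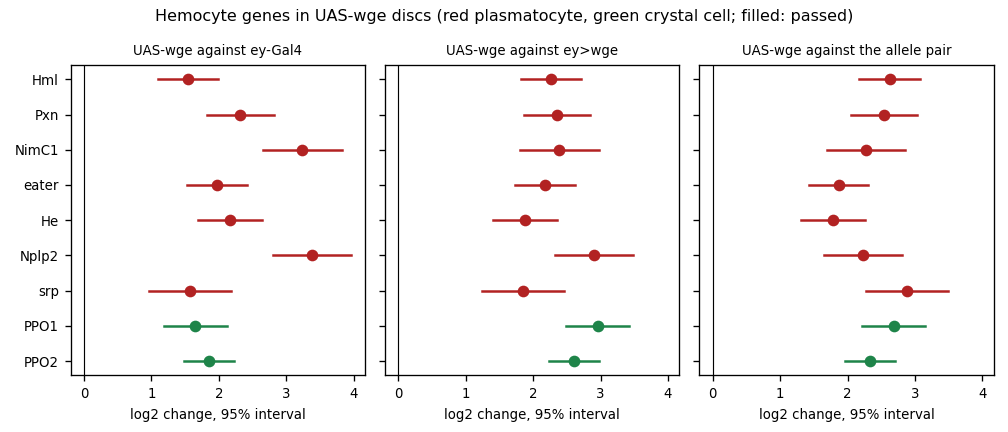
Log2 change of each tested hemocyte probe set in UAS-wge against ey-Gal4, ey>wge and the allele pair, with 95% intervals from the limma fit; red marks plasmatocyte and general hemocyte genes, green the crystal cell genes, and filled points passed the test. Every interval lies above 0, and against ey-Gal4 the changes run from 1.55 for Hml to 3.39 for Nplp2.

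The 3 genotypes other than UAS-wge were then compared with each other. Both crystal cell genes were lower in ey>wge than in ey-Gal4. PPO1 fell by 1.30 on the log2 scale (SE 0.22, limma adjusted p = 0.0016), and PPO2 fell by 0.76 (SE 0.18, limma adjusted p = 0.0196). Of all probe sets 2.29% were called lower here, 1.35% higher and 3.63% in either direction. The call for PPO2 was lost when any 1 of the 3 ey>wge arrays was left out and without ey-Gal4 replicates 1 or 3 (adjusted p of 0.0619 to 0.115). It was also lost in the limma fit without a variance trend (adjusted p = 0.105).

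Of the 7 plasmatocyte probe sets, 0 passed in this comparison, while 2 had an unadjusted p under 0.05 and 1829 of all probe sets did. Hml read lower by 0.71 (log2 change -0.71 ± 0.21, limma adjusted p = 0.08), and its arrays did not overlap between the groups. Hml passed with quantile normalization (adjusted p = 0.0469), with array weights (adjusted p = 0.0199), in the fit limited to these 2 groups (adjusted p = 0.0107), and without allele-pair replicate 1 or with only that replicate kept (adjusted p = 0.0101 in both), where the allele pair enters only through the shared spread. The array weights were largest for allele-pair replicate 2 (5.76) and smallest for its replicate 1 (0.265). NimC1 read higher by 0.85 ± 0.28 (limma adjusted p = 0.122), and it passed without ey-Gal4 replicate 2 (1.19, adjusted p = 0.0186). The median over the 7 was -0.034, beside 0.0049 for all probe sets tested. Whether crystal cell and plasmatocyte genes differ in their response was not tested.

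The eye-antennal disc markers fell in the same comparison in 9 of 13 genes, and lz and peb, which act in crystal cells but are also expressed in the developing eye, fell with them. The Runx factor gene lz changed by -1.23 ± 0.21 (553 ± 66.0 in ey-Gal4 and 227 ± 32.3 in ey>wge), and peb, a zinc-finger factor gene, by -1.61 ± 0.24. The share of the disc's own cells in the falls of lz and peb was not tested.

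Between the allele pair and ey>wge, 1 member passed. The GATA factor gene srp fell by 1.02 (SE 0.29), from 133 ± 30.5 to 60.5 ± 31.8 (limma adjusted p = 0.0406), where 4.57% of all probe sets were called lower, 2.23% higher and 6.8% in either direction. The call was lost when any of 10 of the 12 arrays was left out (adjusted p of 0.0502 to 0.181), and with quantile normalization, a pseudocount of 64, no filter, no variance trend, only the 2 groups in the fit or the trend with gene span removed (adjusted p of 0.0602 to 0.167). With replicate 1 alone for the allele pair the change of srp was -0.40, and that of PPO1, which reads 1332 on that array against 602 and 691, was 0.96. Nplp2 read higher by 0.67 ± 0.28 (adjusted p = 0.151), with PPO1 and PPO2 at 0.27 each (adjusted p = 0.523 and 0.386).

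Over the 13817 tested probe sets, the array median of log2(signal + 16) was lower by 0.34 in the allele-pair group than in ey-Gal4 (log2 difference of -0.34, mean of 3 arrays each). With each array centred on its median, srp did not pass (-0.72, adjusted p = 0.0911), while Nplp2 (0.97, adjusted p = 0.0293) and PPO2 (0.58, adjusted p = 0.0491) were called higher with the allele pair. The direction of the member calls between these 2 groups therefore differed between scalings.

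Between the allele pair and ey-Gal4, 3 genes were lower and 2 higher, in a comparison with 10.8% of all probe sets called lower, 7.04% higher and 17.9% in either direction. The lower ones were srp (-1.31 ± 0.29), Hml (-1.07 ± 0.21) and PPO1 (-1.03 ± 0.22). The higher ones were Nplp2 (1.16 ± 0.28) and NimC1 (0.97 ± 0.28), each in the limma fit. With replicate 1 alone for the allele pair, the changes were 1.06 for Nplp2 and 0.99 for NimC1, close to those of all 3 arrays, and -0.69 for srp, -0.56 for Hml and -0.35 for PPO1, smaller than those of all 3. The call for NimC1 was also lost without ey-Gal4 replicate 1 (adjusted p = 0.12), without ey-Gal4 replicate 3 (adjusted p = 0.0665) and without allele-pair replicate 3 (adjusted p = 0.0637). In the limma fit limited to these 2 groups NimC1 did not pass either (adjusted p = 0.0983). Without a variance trend the calls of both NimC1 (adjusted p = 0.0541) and Nplp2 (adjusted p = 0.0529) were lost.

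**Figure D3:**
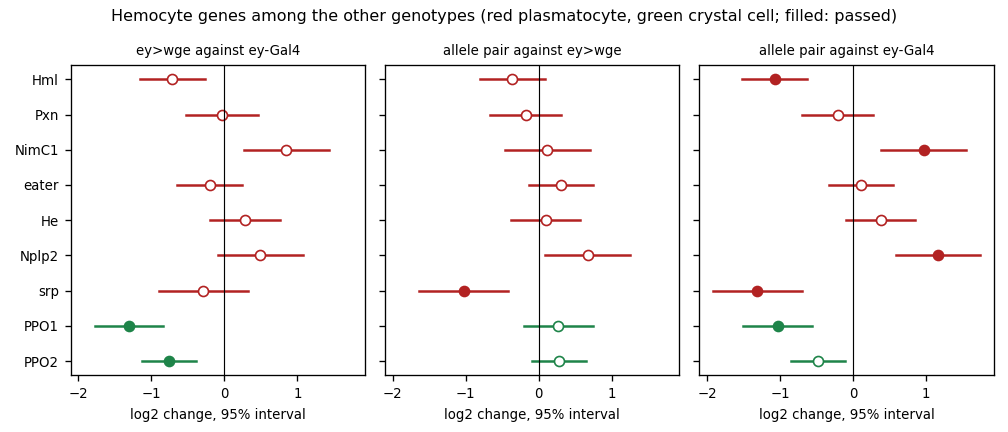
Log2 change of each tested hemocyte probe set among ey-Gal4, ey>wge and the allele pair, with 95% intervals from the limma fit; colours as for the UAS-wge comparisons, and filled points passed the test. PPO1 (-1.30) and PPO2 (-0.76) are the filled points in ey>wge against ey-Gal4, and srp (-1.02) is the one filled point between the allele pair and ey>wge.

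The order of mean signals thus had UAS-wge first for each of the 9 probe sets, and every step from UAS-wge to the genotype ranked second passed. Below it the order differed between genes. For PPO1 and PPO2 ey-Gal4 came second. Its step down to the allele pair passed for PPO1 (-1.03) and not for PPO2 (-0.48 ± 0.18, adjusted p = 0.0702). For Hml and srp the order was ey-Gal4, ey>wge and the allele pair, and of these steps that of srp from ey>wge to the allele pair passed, a call lost with most single arrays left out, as given above. For Nplp2, NimC1 and He the order was the allele pair, ey>wge and ey-Gal4, and no step between neighbours passed. For Pxn and eater none of the 3 pairwise differences among these genotypes passed.

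Other gene groups were set beside the members between the parental lines. Of all probe sets 2.31% were called higher in UAS-wge there, 2.69% lower and 4.99% in either direction. Of 11 other genes linked to crystal cells, 3 were higher in UAS-wge than in ey-Gal4 and 2 lower, with a median of 0.42. CG10467 changed by 1.80 ± 0.18 (773 ± 34.1 to 2807 ± 809), CG7860 by 1.55 ± 0.21, and the malic enzyme gene Men by 1.52 ± 0.30 (381 ± 75.3 to 1119 ± 188). The 2 lower ones were klu, a zinc-finger factor gene (-0.75 ± 0.20), and CG17109 (-2.05 ± 0.43, from 233 ± 141 to 41.6 ± 24.4). The Runx gene lz changed by 0.27 ± 0.21 (adjusted p = 0.696) and peb by 0.55 ± 0.24 (adjusted p = 0.278). Both passed against the mean of the other 3 genotypes (1.06 for lz and 1.89 for peb), in which ey>wge and the allele pair read low.

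Among phagocytic and scavenger receptors, 12 of 19 genes with a probe set were tested, and 2 were higher in UAS-wge than in ey-Gal4, with a median of 0.56. Sr-CI, a scavenger receptor that binds bacteria, changed by 1.52 ± 0.27 (157 ± 72.1 to 456 ± 90.2), and NimB4, a secreted Nimrod protein gene, by 1.14 ± 0.31 (180.4 ± 57.7 to 414 ± 111). The scavenger receptor gene crq, a CD36 relative, did not pass (0.51, adjusted p = 0.344), and neither did drpr, an engulfment receptor gene (-0.29, adjusted p = 0.392). Against the mean of the other 3 genotypes Dscam1 (0.58 ± 0.17) passed as well. Of the single comparisons, only that with the allele pair passed for Dscam1 (1.45 ± 0.21, limma adjusted p = 0.000108). Its change was 0.12 against ey-Gal4 (limma adjusted p = 0.903) and 0.18 against ey>wge (adjusted p = 0.82). NimB5 met the filter on low signals through its 3 UAS-wge arrays and 1 ey-Gal4 array, so the filter itself favoured a higher reading in UAS-wge. It averaged 45.3 in UAS-wge and 4.47 to 13.6 elsewhere, at background, and no fold is given. By limma it did not pass against ey-Gal4 (adjusted p = 0.174) or ey>wge (adjusted p = 0.0932).

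Plasmatocytes secrete basement membrane proteins, and 2 of 11 genes of that list were higher in UAS-wge than in ey-Gal4, with a median of 0.23. SPARC, which encodes a collagen-binding glycoprotein, changed by 0.83 ± 0.13 (990.0 ± 63.3 to 1774 ± 150.4), and Glt, the glutactin gene, by 0.69 ± 0.19. The collagen IV genes did not pass: Col4a1 read 411 ± 145 and 846 ± 318 (a change of 1.00 ± 0.31, adjusted p = 0.0809), and vkg changed by 0.11 (adjusted p = 0.923). The membrane gene Pxn, a member here, differed by 2.32 on the same scale. Against the mean of the other 3 genotypes Col4a1 (0.95 ± 0.25), Ppn (0.70 ± 0.14) and LanB1 (0.59) also passed. Of the single comparisons, each of these genes passed only that with the allele pair (1.07, 1.49 and 0.91). LanB1 ran from 1778 to 4289 on the allele-pair arrays and from 3688 to 4325 in ey>wge. Col4a1 overlapped too (254 to 552 and 386 to 527), and Ppn did not (1474 to 2734 and 3682 to 4295). The part of the allele-pair arrays with a span trend in these calls was not tested.

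Of 9 tested blood cell regulators, 0 passed between the parental lines, and of 7 lamellocyte markers 0 passed. Lamellocytes are the large hemocytes that form after wasp infestation. Their prophenoloxidase gene PPO3 averaged 38.2 ± 29.7 in ey-Gal4 discs and 8.60 ± 3.53 for UAS-wge, and their integrin gene ItgaPS4 read 39.2 ± 28.1 and 26.3 ± 5.74, values around or below the limit of the low-signal filter in the mean. Against the mean of the other 3 genotypes the lamellocyte list genes betaTub60D (0.78 ± 0.14) and ItgaPS5 (1.00 ± 0.29) passed, and the growth factor gene Pvf1 was lower (-0.96 ± 0.26). The change of betaTub60D was -0.055 against ey-Gal4, beside 1.03 against ey>wge and 1.36 against the allele pair. Its call thus rests on the latter groups, which read low. Of the single comparisons, ItgaPS5 passed only that with the allele pair (1.45, limma adjusted p = 0.00897). Of 11 tested melanization and clotting genes and 5 antimicrobial peptide genes, 0 passed between the parental lines.

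Markers of other larval tissues that could be carried over in dissection were read alongside. Between the parental lines, of 5 fat body, 4 trachea, 6 glia and 6 salivary gland genes, 0 passed in the limma fit. Of all probe sets 4.99% were called there in either direction, and so few genes cannot tell 0 from that share. Several fat body and salivary gland genes read low, such as Fbp2 (11.6 in ey-Gal4 and 25.2 in UAS-wge) and Sgs7 (19.6 and 15.5). The summed fat body signal was 162 to 205 in ey-Gal4 and 140 to 230.4 in UAS-wge, and that of the salivary gland genes 418 to 525 and 398 to 424. Muscle genes were lower in UAS-wge in 3 of 8: the troponin T gene up (-1.46 ± 0.34), bt, which encodes a titin-like kinase (-1.30 ± 0.29), and the tropomyosin gene Tm2 (-1.20 ± 0.31). The summed muscle signal was 5093 to 12421 on ey-Gal4 arrays, 2896 to 3908 for UAS-wge, 5246 to 6965 on ey>wge arrays, and 1522 to 3132 on allele-pair arrays. Against the mean of the other 3, Act87E was lower (-0.59 ± 0.16) and the glia gene loco higher (0.75 ± 0.11). Of the single comparisons, Act87E passed only that with ey>wge (-1.01). The change of loco was -0.035 against ey-Gal4, beside 0.91 against ey>wge and 1.39 against the allele pair. Its call thus rests on the latter groups, which read low.

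**Figure D4:**
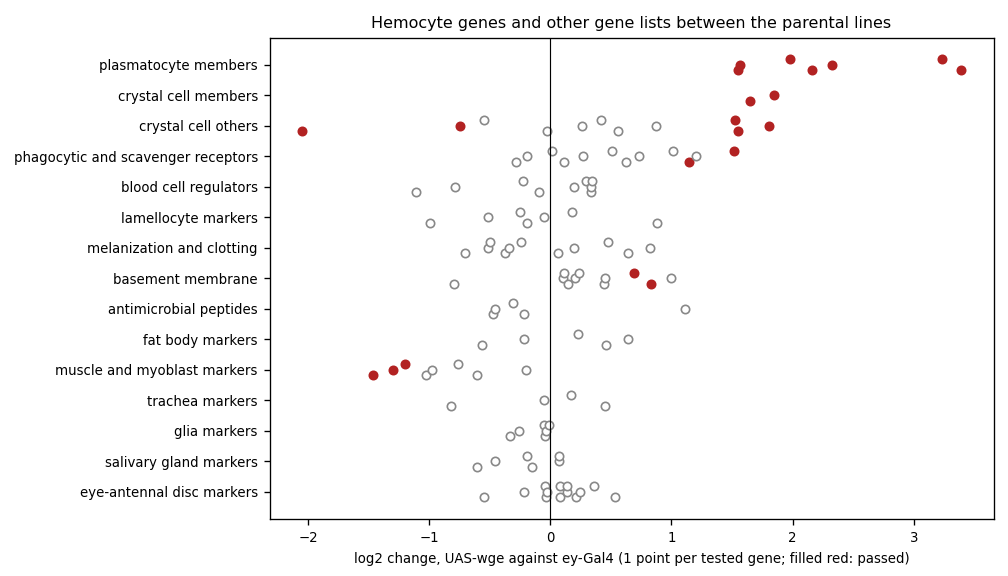
Log2 change in UAS-wge against ey-Gal4 for each tested gene of the hemocyte groups and of 13 other lists; filled red points passed the limma test, open points did not, and vertical offsets within a row only separate points. The member genes lie between 1.55 and 3.39. The rows of blood cell regulators, lamellocyte markers, melanization and clotting genes and antimicrobial peptides hold no filled point. Neither do the disc, fat body, trachea, glia and salivary gland rows.

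By position, He and NimC1 are direct neighbours on chromosome arm 2L, and NimB5 and NimB4 follow on the other side of He in the RefSeq gene order used here. The other members have no member neighbour, and they lie on 3L (Hml, Pxn and Nplp2), 3R (eater and srp) and 2R (PPO1 and PPO2). Within 3 protein-coding genes on each side of the members, 30 other genes were tested. Of these 1 was higher in UAS-wge than in ey-Gal4, NimB4, and 0 were lower. These counts are near the shares of all probe sets called in that comparison, 2.31% higher and 2.69% lower. Between NimC1 and NimC2 lies Cyp28a5, which changed by 0.23 (adjusted p = 0.925).

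The genes whose profile over the 12 arrays came closest to the mean of the plasmatocyte group were found by the root mean square difference of centred log2 values, which was 1.06 in the median over 10803 single-gene probe sets outside the members. The members themselves lay at 0.21 (eater) to 0.58 (Nplp2) from their mean. The nearest other probe sets with signal in all 4 genotypes were those of CG34331 (0.28), CG5397 (0.34), CG10467 (0.35) and the activin-like ligand gene Actbeta (0.39). Ance-5, Miox, CG11029 and Sr-CI came after these, at 0.40 to 0.46. Of the 10 nearest, 2 were at background outside UAS-wge, so that the pseudocount sets their distance. They met the filter on low signals through their UAS-wge arrays, so the filter itself favoured their likeness to this profile. LysX, a lysozyme gene (0.24), read 50.4 ± 3.61 in UAS-wge and 2.10 to 2.83 elsewhere. The cuticle protein gene Lcp65Ae (0.47) read 52.6 ± 6.18 in UAS-wge and 5.63 to 13.4 elsewhere. CG34331 read 216 ± 68.5 on ey-Gal4 arrays, 803 ± 64.8 for UAS-wge, 173 ± 44.3 on ey>wge arrays, and 187 ± 57.0 on allele-pair arrays.

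For the crystal cell genes the nearest was Ance-5, an angiotensin-converting enzyme relative, at 0.24. It read 156 ± 25.7 on ey-Gal4 arrays, 448 ± 89.4 for UAS-wge, 83.2 ± 8.38 on ey>wge arrays, and 84.0 ± 37.5 on allele-pair arrays. Since it was chosen by closeness to PPO1 and PPO2 on these arrays, ranks shared with them are no separate evidence. CG1092 (0.36), CG34331 (0.36), CG10467 (0.40) and CG9119 (0.46) followed. The 3 UAS-wge arrays share a stock, and each gene named here had its highest mean in them.

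**Figure D5:**
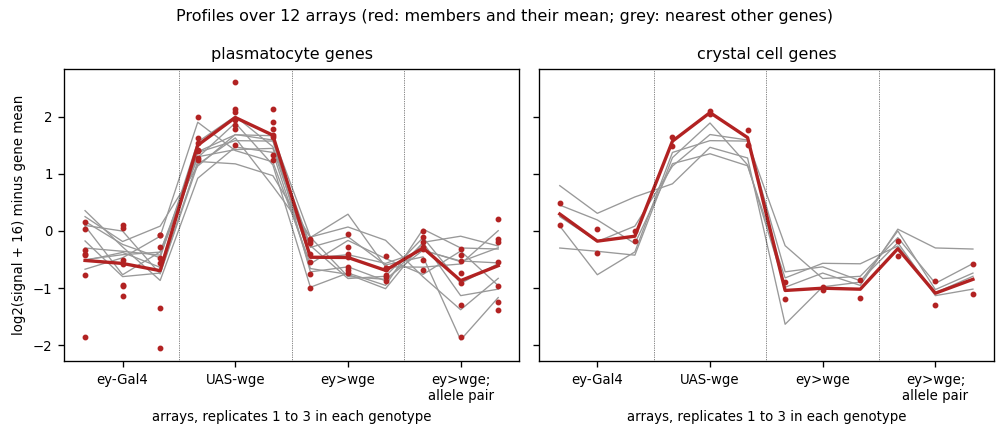
Profiles over the 12 arrays as log2(signal + 16) minus the mean of each gene, for plasmatocyte and crystal cell genes; red points are member probe sets, the red line is their mean, and grey lines are the 10 and 5 nearest other genes. The UAS-wge arrays rise in both panels, and in the crystal cell panel the ey-Gal4 arrays lie above those of ey>wge.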

How the data were processed

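The authors deposited linear MAS5 intensity values (no version or settings given, per the submitters' processing notes), scaled so that the mean without the outer 2% of probe sets is close to 500.01 on each array. The number of arrays limits the precision. The labels name biological replicates but no separate cultures or dates. Signals were taken as log2(signal + 16). The 183 control probe sets were dropped, and a probe set was tested above its array's 40th percentile on at least 3 arrays (13817). Limma 3.58.1 in R 4.3.3 fitted 1 mean per genotype to all 12 arrays (eBayes with trend), two-sided, adjusted by Benjamini-Hochberg over all probe sets, with the fit checked on simulated data. Members, lists and comparisons were chosen with earlier results of these data known. Named are all members, up to 4 passing genes per list (UAS-wge against the mean of the others) and the 10 and 5 nearest profiles; further list genes were chosen after their values were seen. A gene with several probe sets is represented by the one of highest mean. Symbols came from the platform annotation, updated by gene ID. Alternatives were quantile and median scaling, pseudocounts of 1 and 64, no filter or a 60th percentile filter, no trend, array weights, a replicate block, only the groups compared, each array left out, only allele-pair replicate 1, and the gene span trend removed.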

Additional observations from a re-analysis of the deposited data

How the results depend on the processing

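All 9 member probe sets were higher in UAS-wge than in ey-Gal4, ey>wge, the allele pair and the mean of these under each alternative run, with changes between 1.35 and 3.63 and a highest adjusted p of 0.0238 (srp against ey-Gal4). Among the other genotypes the counts of members moved. For ey>wge against ey-Gal4 the 2 became 1 without a variance trend, became 3 (with Hml) with quantile scaling, array weights, only these groups or only allele-pair replicate 1, and ranged from 1 to 3 with single arrays left out. For the allele pair against ey-Gal4 the 5 became 3 without the trend, 0 with only replicate 1 (1 array, its spread taken from the other groups), and 4 to 6 with arrays left out. For the allele pair against ey>wge the 1 became 0 with quantile scaling, a pseudocount of 64, no filter, no trend, only these groups or the span trend removed, 2 (both higher) with median centring, 2 with array weights, and 0 to 2 with arrays left out. The 2 calls with array weights were both lower, in a fit that gave allele-pair replicate 2 a weight of 5.76 and replicate 1 a weight of 0.265. Replicate 2 is among the arrays with a low median and a span trend. The cause of the moved counts was not tested. No called change reversed. Uncalled changes that turned sign between the allele pair and ey>wge were Pxn (0.056 with quantile scaling, 0.12 with median centring, 0.24 with only replicate 1, 0.019 with the span trend removed), PPO1 (-0.11 with array weights), He (-0.25 with array weights, -0.10 with the span trend removed) and Hml (0.15 with only replicate 1). Against ey-Gal4 with the allele pair these were Pxn (0.050, 0.13, 0.20 and 0.090 under the same 4 settings) and eater (-0.037 with array weights), and in ey>wge Pxn (0.0087 with median centring, 0.070 with the span trend removed). With single arrays left out, Pxn ranged from -0.25 to 0.085 in ey>wge, NimC1, He and PPO1 between the allele pair and ey>wge from -0.056 to 0.22, -0.020 to 0.30 and -0.073 to 0.49, and eater with the allele pair against ey-Gal4 from -0.070 to 0.20. Counts over all probe sets ranged over the alternatives from 456 to 1060 (690 as reported) for UAS-wge against ey-Gal4, 329 to 899 (511) against ey>wge, 767 to 5545 (2303) against the allele pair, 486 to 2196 (936) against the mean of the others, 299 to 899 (502) for ey>wge against ey-Gal4, 177 to 4409 (939) for the allele pair against ey>wge and 812 to 5155 (2467) against ey-Gal4. Median centring turned the split of higher and lower calls from 308 and 631 to 1255 and 305 for the allele pair against ey>wge, from 973 and 1494 to 2470 and 736 against ey-Gal4, from 1389 and 914 to 676 and 2018 for UAS-wge against the allele pair, and from 520 and 416 to 392 and 477 against the mean of the others. Limiting the fit to the groups compared gave no separate value for the mean of the others, which uses all 4. The replicate number as a block left the counts of members at 9 for each UAS-wge comparison and at 2, 1 and 5 for the other three; arrays of the same number had correlations of deviations of -0.049 to 0.083 in 18 pairs, so the numbers were not taken as pairing.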
